A study of Sus scrofa with 16 samples.

Results

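Cytochrome P450 (CYP) genes were defined as the protein-coding genes (PCGs) of RefSeq, on the pig genome build Sscrofa11.1, whose symbol starts with CYP and then a digit, with CYP51 left out. This rule gave 36 genes in 15 families among the 19560 PCGs on placed chromosomes. Family 2 held 12 of them, family 4 held 5, families 3 and 19 held 3 each, families 1 and 27 held 2 each, and the other families held 1 each. A further 32 genes that the annotation describes as cytochrome P450 but names without a CYP symbol were not members.

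Accessible chromatin regions (ACRs) had been profiled with Omni-ATAC, a form of ATAC-seq in which a transposase cuts open DNA, in 16 libraries from untreated females of a domestic crossbreed, and the methods describe the animals as full-sib Berkshire × Tibetan hybrids. The newborn pigs (day 0 in the labels) gave liver, kidney, lung, spleen, heart and skeletal muscle, and older pigs gave liver at day 28 (suckling) or day 180 (adult). Each of these 8 groups had 2 biological replicates, the replicates of a group were merged into 1 list of consensus peaks, and the newborn tissues came from the same 2 animals. A list held from 57126 peaks (muscle) to 141689 (suckling liver), newborn liver held 120012 and adult liver 109003, and the share of peaks with an irreproducible discovery rate (IDR, the estimated rate at which peaks of that rank fail to recur between replicates) of 0.05 or lower ran from 19.1% in newborn liver to 50.3% in adult liver. The deposited lists hold no read counts, and library depths were not used here. A peak missing from a list was not called there, which does not show that the chromatin was closed.

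P450 enzymes are heme proteins that insert an oxygen atom into their substrates. Most members of families 1 to 3 clear drugs, plant compounds and other foreign chemicals, above all in the liver, and their output is known to rise after birth. Members of families 4 and higher mostly act on the body's own fatty acids, bile acids, steroids, vitamin D and retinoic acid, often in the kidney, adrenal gland or gonads, and all of them draw electrons from partner proteins such as POR or FDX1.

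In the full peak lists, liver at each age had more open CYP promoters than the other newborn tissues. A promoter was the stretch between 2.2 kb before and 500 bp after an annotated start, and it was counted as open where a consensus peak overlapped it by 1 bp. In newborn liver 26 of the 36 genes (72.2%) had an open promoter, against 73.5% of all PCGs. Kidney followed with 19 genes (52.8%, all PCGs 75.1%), and lung and spleen had 13 each (36.1%, with 70.4% of all PCGs in lung and 68.8% in spleen). Heart had 11 genes (30.6%, all PCGs 67.9%) and muscle had 9 (25%, all PCGs 61.4%). In suckling liver the count was 26 (72.2%, all PCGs 74.8%), and in adult liver it was 27 (75%, all PCGs 69.7%). In the 5 newborn tissues other than liver the CYP share was thus below that of all PCGs, while in liver it was close to it. With peaks of an IDR of 0.05 or lower alone, the CYP count was 14 in kidney (38.9%, all PCGs 56.1%) and 13 in newborn liver (36.1%, all PCGs 43.9%), so the lead of newborn liver over kidney was lost, and it was 20 in suckling liver (55.6%, all PCGs 55.2%) and 22 in adult liver (61.1%, all PCGs 56.7%). Each count comes from 1 list and has no replicate error. In tissue pieces, fewer cells of a type and less open chromatin per cell cannot be told apart.

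**Figure D1:**
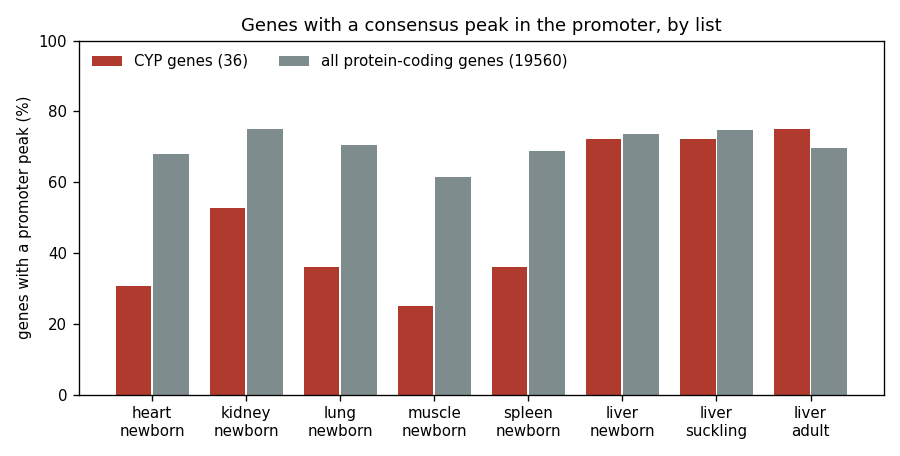
Percent of genes with a consensus peak in the promoter (y axis, 0 to 100%) in each of the 8 lists (x axis), for the 36 CYP genes and for all 19560 PCGs. The CYP share lies from 25% to 52.8% in the newborn tissues other than liver, where all PCGs lie from 61.4% to 75.1%, and from 72.2% to 75% in the 3 liver lists.

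Newborn liver alone among the newborn tissues had a promoter peak at 7 CYP genes (19.4%), against 1.43% of all PCGs. These were CYP2C33, CYP2C34, CYP2C42, CYP2C49, CYP2E1, CYP3A29 and CYP21A2, of which 6 belong to the drug-metabolizing families 2 and 3, and CYP21A2 is the steroid 21-hydroxylase. A peak in all 6 newborn tissues was found at 8 genes (22.2%), against 57.6% of all PCGs. These 8 were CYP1A1, CYP2J34, CYP2R1, CYP4F55, CYP4V2, CYP20A1, CYP27A1 and CYP39A1. No list had a promoter peak at another 8 genes (22.2%, all PCGs 17.0%), namely CYP2B22, CYP2C32, CYP4A21, CYP17A1, CYP19A1, CYP19A2, CYP19A3 and CYP27B1. Of simulated reads from the CYP2B22 and CYP4A21 promoters, 57.7% and 96.2% fell below the mapping quality of 10 that the authors required. The share was 0% at CYP17A1, CYP19A3 and CYP27B1. Its mean was 8.55% over the 36 CYP promoters and 1.59% over 390 other promoters, with medians of 0%. Whether this filter removed peaks at CYP2B22 and CYP4A21 was not tested. Of the hepatocyte markers ALB, APOA2, TTR and HNF4A, newborn liver had promoter peaks at 3, suckling and adult liver at 4, and each other newborn tissue at 1 or 2. These markers set newborn liver apart only in part. TTR was called there, at percentile 72.2 (the percent of the peaks of its list that are weaker by the −log10 p of the merged list), and in no other newborn tissue, whereas ALB was called in no newborn tissue. HNF4A stood at 35.6 in newborn liver and 79.7 in kidney, and APOA2 was called in all 8 lists, at 90.4 in newborn liver and from 98.3 to 98.9 in heart, lung and muscle. Newborn liver also had promoter peaks at 3 of the 4 skeletal muscle markers (MYOD1, ACTA1 and CKM, at percentiles 60.5, 2.09 and 4.42).

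**Figure D2:**
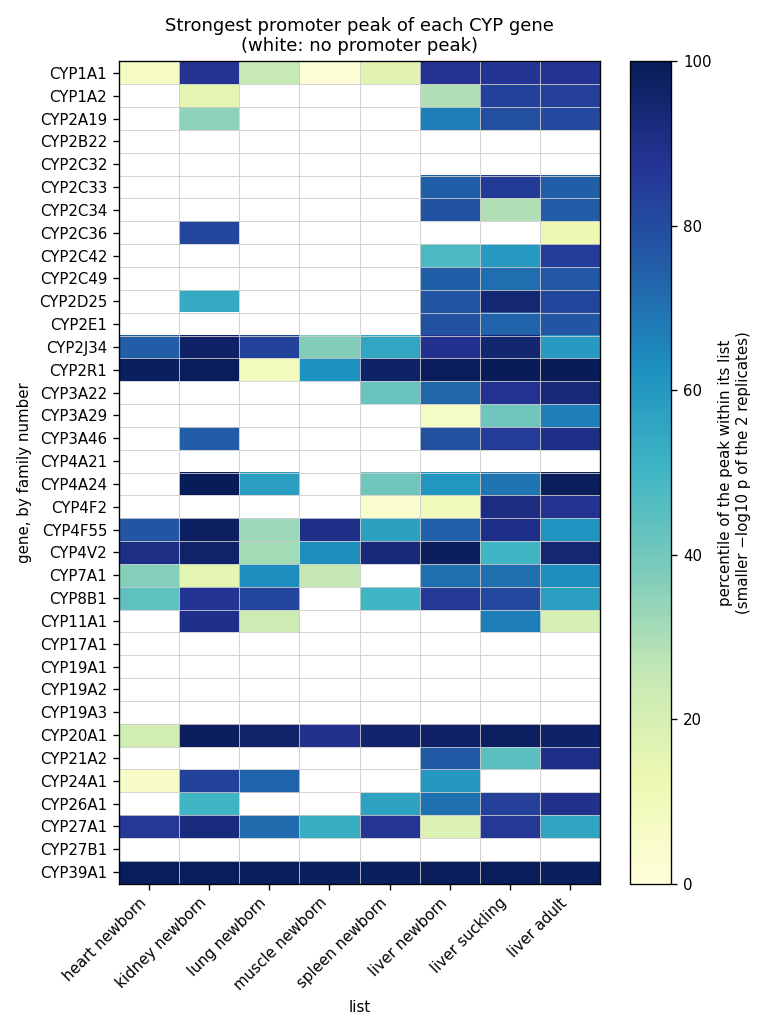
Percentile, within its own list, of the strongest promoter peak of each CYP gene (rows, ordered by family) in each of the 8 lists (columns), with empty cells where no peak was called. Families 2 and 3 are filled mainly in the 3 liver columns, the 8 genes open in all newborn tissues fill whole rows, and the 3 family 19 rows are empty.

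By family, family 2 had open promoters at 9 of 12 genes in newborn liver, 9 in suckling and 10 in adult liver, but at 5 in kidney and at 2 in each of heart, lung, muscle and spleen. Family 3 had 3 of 3 at each liver age, 1 in kidney, 1 in spleen and 0 in heart, lung and muscle. Family 4 was spread more evenly, with 4 of 5 at each liver age, 4 in spleen, 3 in kidney and lung and 2 in heart and muscle. Family 1 had 2 of 2 in kidney and at every liver age and 1 of 2 elsewhere, and family 19 had 0 of 3 everywhere.

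Sequences of 201 bases under or beside promoter peaks show what these regions hold. They were read from the RefSeq Sscrofa11.1 genome 5′ to 3′ on the strand of the gene, and none overlaps an annotated exon. Capitals mark words of 4 regulators known to act at CYP genes: TNGCGTG for AHR, GTTAATNAT for HNF1, TTGCNNAA for CEBP and TGTTTAC or TGTTTGC for FOXA, where N is any base and either strand counts. CYP1A1 is shown because its upstream peak was called in every list, CYP2C34 for its HNF1 word, CYP2E1 and CYP3A29 as genes open in newborn liver alone among newborn tissues, and CYP24A1 as the gene whose promoter peak was called in newborn liver but at neither later age. A word match is a description of these letters and not evidence of binding.
CYP1A1, chr7:58801799-58801999, plus strand: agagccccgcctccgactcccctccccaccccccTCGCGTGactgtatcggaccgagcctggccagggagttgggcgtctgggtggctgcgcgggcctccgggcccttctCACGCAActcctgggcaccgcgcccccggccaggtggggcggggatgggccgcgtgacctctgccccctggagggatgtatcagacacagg
CYP2C34, chr14:106282925-106283125, plus strand: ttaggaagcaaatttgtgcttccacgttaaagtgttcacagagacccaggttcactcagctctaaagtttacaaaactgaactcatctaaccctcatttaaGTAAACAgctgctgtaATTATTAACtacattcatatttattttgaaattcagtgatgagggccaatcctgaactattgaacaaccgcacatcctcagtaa
CYP2E1, chr14:141690415-141690615, plus strand: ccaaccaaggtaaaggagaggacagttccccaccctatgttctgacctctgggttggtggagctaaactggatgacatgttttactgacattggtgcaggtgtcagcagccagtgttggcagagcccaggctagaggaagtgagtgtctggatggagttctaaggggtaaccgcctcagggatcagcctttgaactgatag
CYP3A29, chr3:6738288-6738488, plus strand: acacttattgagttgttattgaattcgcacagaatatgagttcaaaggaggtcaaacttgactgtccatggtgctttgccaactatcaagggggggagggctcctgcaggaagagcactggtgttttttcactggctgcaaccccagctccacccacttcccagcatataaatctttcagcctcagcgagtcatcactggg
CYP24A1, chr17:55130444-55130644, minus strand: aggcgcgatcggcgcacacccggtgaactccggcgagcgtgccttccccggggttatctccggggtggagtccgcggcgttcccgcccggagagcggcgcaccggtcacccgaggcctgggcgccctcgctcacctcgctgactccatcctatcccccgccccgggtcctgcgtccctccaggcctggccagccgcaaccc

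The family 1 genes encode the enzymes that oxidize planar aromatic compounds, and the AHR receptor that senses such compounds is known to switch on CYP1A1. Below, a peak is given by its −log10 p in replicate 1 and in replicate 2, as the peak caller scored it in each library. These values rise with the depth of a library, so they are compared across lists only as percentiles, the percent of the peaks of the same list and replicate that are weaker. The CYP1A1 peak, with its summit 988 bp upstream of the start in newborn liver, scored 187 and 28.4 in newborn liver, 23.9 and 33.3 in suckling and 112 and 128 in adult liver. It scored 22.3 and 31.0 in kidney, 3.96 and 10.7 in heart, 4.43 and 36.3 in lung, 3.61 and 7.72 in muscle and 4.62 and 12 in spleen. As percentiles the values ran from 83.0 to 89.8 over the 6 liver libraries. The peak was thus called everywhere and ranked high in all liver libraries, whereas heart, lung, muscle and spleen each had a low replicate value. The printed CYP1A1 window holds 2 AHR words, and within 150 bp of the summit there were 3 in 7 of the lists and 2 in lung. Of all promoter peaks in newborn liver, 6.87% held 1 or more such words.

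CYP1A2 lies on chromosome 7 beside CYP1A1, transcribed the other way, and clears caffeine and aromatic amines in the liver. Its peak about 2.1 kb upstream scored 70.9 and 5.25 in newborn liver, 19.4 and 24.4 in suckling, 88.9 and 93.1 in adult liver and 7.23 and 4.36 in kidney. A second peak, over the start itself (chr7:58785939-58786352 in adult liver), was not called in newborn liver. It scored 4.4 and 8.24 in suckling liver (percentiles 12.8 and 39.3) and 98.5 and 76.2 in adult liver (81.8 and 75.9). The start of CYP1A2 thus ranked higher in both adult libraries than in both suckling libraries.

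The CYP2C enzymes oxidize many drugs and arachidonic acid, and the 6 pig genes of the subfamily differed from each other. The CYP2C33 peak at the start scored 112 and 15.5 in newborn, 39.0 and 21.4 in suckling and 293 and 50.7 in adult liver. For CYP2C42 the values were 136 and 7.29, 8.09 and 19.7, and 94.0 and 117. For CYP2C49 they were 39.4 and 15.5, 11.5 and 24.1, and 88.2 and 56.8. None of these promoter peaks was called in another tissue. CYP2C34 had its strongest promoter peak 2.1 kb upstream in newborn liver (131 and 18.0) and adult liver (62.1 and 52.7), where the printed HNF1 and FOXA words lie, and in suckling liver a weaker one 545 bp downstream of the start (8.94 and 4.8). The HNF1 word was found at 0.549% of the promoter peaks of all PCGs in newborn liver, and CYP2C34 was the 1 CYP gene that held it.

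CYP2C36 was open in another tissue than its neighbours. Its start peak was called in kidney, at 17.2 and 21 (percentiles 79.9 and 76.3), and in adult liver, at 18.4 and 4.93 (50.1 and 5.33), with an IDR of 0.0049 in kidney and 0.479 in adult liver. Kidney had 5 peaks in its promoter or body, of which 3 were called in no other list, against 0 in newborn liver and 1 each in suckling and adult liver. The 3 peaks found in kidney alone were weak, with −log10 p from 4.33 to 5.25 in the replicates. CYP2C32 had no promoter peak in any list and 1 weak intron peak in newborn liver (5.42 and 7.29).

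The 201 bases just upstream of the annotated starts of CYP2C49, CYP2C32 and CYP2C36 are shown to set these unlike patterns beside the letters. CYP2C32 was added after its values were seen.
CYP2C49, open at all 3 liver ages, chr14:106571602-106571802, plus strand: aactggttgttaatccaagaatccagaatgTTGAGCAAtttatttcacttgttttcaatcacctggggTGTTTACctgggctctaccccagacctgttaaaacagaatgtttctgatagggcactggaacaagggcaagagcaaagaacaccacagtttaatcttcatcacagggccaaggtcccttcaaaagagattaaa
CYP2C32, open in no list, chr14:106437756-106437956, plus strand: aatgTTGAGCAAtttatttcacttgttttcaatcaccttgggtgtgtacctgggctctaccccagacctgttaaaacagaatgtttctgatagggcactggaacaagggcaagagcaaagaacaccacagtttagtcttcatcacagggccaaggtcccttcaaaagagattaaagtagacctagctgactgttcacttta
CYP2C36, open in kidney and adult liver, chr14:106184464-106184664, plus strand: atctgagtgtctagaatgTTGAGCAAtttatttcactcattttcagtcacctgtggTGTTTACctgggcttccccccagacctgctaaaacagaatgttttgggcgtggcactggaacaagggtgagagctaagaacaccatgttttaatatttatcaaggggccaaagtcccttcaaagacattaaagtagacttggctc
Aligned with free ends, CYP2C32 and CYP2C49 were identical at 172 of 175 bases (98.3%). The differences, counted from 1 at the 5′ end of the CYP2C49 window with its base first, were G65T, T72G and A161G. The FOXA word of CYP2C49 covers bases 69 to 75, so T72G lies inside it and the CYP2C32 window has no FOXA match, while both windows hold the CEBP word. CYP2C36 was identical to CYP2C49 at 83.1% of 189 aligned positions and holds both words. Of simulated 150-base reads from these promoters, 7.69% (CYP2C32) and 3.85% (CYP2C36 and CYP2C49) fell below the mapping quality of 10 that the authors required. The same 201-base stretch of CYP2C33, CYP2C34 and CYP2C42 held no FOXA word, and that of CYP2C33 and CYP2C42 no CEBP word. These genes had promoter peaks at all 3 liver ages. Whether the letters bear on the peaks was not tested.

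Other family 2 genes followed the liver or were open everywhere. CYP2E1 oxidizes ethanol and paracetamol, and its start peak was called in the 3 liver lists alone, at 88.2 and 18.3 in newborn, 12.7 and 23.4 in suckling and 127 and 59.7 in adult liver. Its percentiles there overlapped between ages (76.4 and 76.7, 70.7 and 74.5, 86.2 and 70.7). CYP2R1, the main 25-hydroxylase of vitamin D, had one of the strongest promoters of the family, at 513 and 128 in newborn, 141 and 183 in suckling and 364 and 421 in adult liver, with all 6 percentiles at 99.5 or above. It was open in each other newborn tissue too, where 1 library of lung (3.85, against 196 in the other) and 1 of muscle (11.5, against 117) stood low. CYP2J34, whose relatives make epoxides of arachidonic acid, was open in all lists, and in kidney at 50.1 and 70 and newborn liver at 189 and 30.3. CYP2A19, of the nicotine-oxidizing subfamily, had a peak over its start in suckling (11.6 and 22.7) and adult liver (41.4 and 52.5) but not in newborn liver.

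Family 3 encodes the most abundant drug-oxidizing enzymes of the liver, and the 3 pig genes lie side by side on chromosome 3. CYP3A22 had a promoter peak about 2.2 kb upstream (chr3:6614507-6615462) that scored 145 and 14.5 in newborn (percentiles 85.5 and 69.8), 20.4 and 25.3 in suckling (82.8 and 76.5) and 223 and 168 in adult liver (95.2 and 91.5). Its peak over a later start (chr3:6626487-6627302) scored 60.9 and 5.35 in newborn (69.4 and 21.6), 24.9 and 34.3 in suckling (86.5 and 83.6) and 111 and 3.84 in adult liver (83.9 and 1.56). The upstream peak thus ranked highest in both adult libraries, whereas at the later start the suckling libraries were the ones that were both high. CYP3A46 scored 111 and 18.5, 21.2 and 31.2, and 155 and 129 in that order, and 12.9 and 17.2 in kidney. CYP3A29 scored 109 and 3.77, 5.74 and 14.1, and 70.7 and 32.3. All were called at each liver age, and the CYP3A22 peak in spleen (6.63 and 21.5) lay at another position than those in liver. The replicates of newborn liver differed widely at these genes, and over the whole list the median −log10 p was 24.8 in replicate 1 and 8.66 in replicate 2.

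Family 4 enzymes hydroxylate fatty acids and their derivatives. CYP4A24 had a peak about 1.3 kb upstream that scored 122 and 207 in kidney (percentiles 99.8 and 99.9), 317 and 493 in adult liver (98.9 and 99.9), 819 and 9.91 in newborn liver (the top of the list and 55.7) and 10.9 and 93.6 in suckling liver (65.6 and 96.9). Kidney and adult liver thus had it near the top in both libraries, and newborn and suckling liver in 1 library each. Of the simulated reads of the CYP4A24 promoter, 34.6% fell below the mapping quality filter, and of CYP4A21, whose promoter had no peak in any list, 96.2% did. An intron of CYP4A21 had peaks in every liver list, scoring 190 and 36.6 in newborn and 148 and 299 in adult liver (chr6:164696164-164698427), and weaker ones in kidney. CYP4F2, which degrades vitamin K and leukotrienes, scored 3.94 and 37.9 in newborn, 31.7 and 51.9 in suckling and 113 and 155 in adult liver. CYP4V2, a fatty acid hydroxylase of many tissues, was open in all 8 lists and scored 254 and 82.7, 95.4 and 6.6, and 221 and 182 at the 3 liver ages.

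Bile acid synthesis involves CYP7A1, CYP8B1, CYP27A1 and CYP39A1. CYP7A1 is the rate-limiting enzyme of the classical route. Its annotated gene begins inside an intron of SDCBP, and the promoter peak there was called in 7 of 8 lists and cannot be assigned to either gene. In 4 of its 5 transcripts the coding sequence starts at base 74363346 of chromosome 4. The peak over that exon (chr4:74362772-74363429) was called in adult liver and no other list, at 80.8 and 36.1 (percentiles 78.6 and 58.8) with an IDR of 0.0135. This peak was picked after its values were seen. CYP8B1, the 12α-hydroxylase that makes cholic acid, lies within the span of ZNF662. The region over its start (chr13:26331628-26332022) was called in newborn liver (64.0 and 6.12) and adult liver (51.8 and 20.6), in neither suckling liver nor another tissue, and a region about 2 kb upstream was called in 7 of the 8 lists, all but muscle. CYP27A1, the sterol 27-hydroxylase of mitochondria, and CYP39A1, an oxysterol 7α-hydroxylase, were open in all lists. CYP39A1 ranked at percentile 97.3 or higher in each newborn library and shares its promoter with SLC25A27.

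The steroid-forming genes had few promoter peaks. CYP11A1 cuts the side chain of cholesterol, and its start peak was called in kidney at 31.3 and 24.8 (percentiles 91.6 and 80.3), in lung at 4.38 and 17.2, in suckling liver at 10.1 and 18.8 and in adult liver at 5.96 and 31.5, but not in newborn liver. Of the adrenal cortex markers NR5A1, STAR, MC2R and HSD3B1, kidney had promoter peaks at 2 (STAR and HSD3B1), newborn and suckling liver at 2, adult liver and lung at 1, and MC2R had none in any list. The part of adrenal cells in the kidney value was not tested. CYP17A1 had no promoter peak, and its body region called in all 8 lists overlaps BORCS7. The 3 aromatase genes of family 19, which make oestrogens in ovary, placenta and embryo, had no promoter peak anywhere, CYP19A1 and CYP19A2 had no body peak either, and the promoters of CYP19A2 and CYP19A1 gave 38.5% and 17.3% of simulated reads below the mapping filter.

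CYP21A2 shows how a window can set a call. The region upstream of the gene (chr7:24082797-24084111) overlaps the 3′ end of C4A, and it scored 168 and 16.5 in newborn, 16.4 and 25.3 in suckling and 191 and 133 in adult liver, and 20.7 and 9.55 in newborn muscle. The suckling peak ended at base 24083782, short of the promoter, as did the muscle peak, and the peak counted for suckling liver was a weaker one at 6.01 and 9.07 closer to the start. As percentiles, the upstream region stood at 88.0 and 73.9, 77.8 and 76.6, and 92.8 and 87.4 at the 3 ages. A body region (chr7:24088330-24088887) was called in suckling liver at 4.77 and 5.11 (19.1 and 17.1) and in adult liver at 150 and 78.3 (89.0 and 76.5), and not in newborn liver.

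Vitamin D and retinoic acid are broken down by CYP24A1 and CYP26A1. CYP24A1 was open in kidney (21 and 17.5), lung (9.57 and 12.2), newborn liver (12 and 9.73) and heart (3.89 and 6.68), and not called in muscle, spleen, suckling or adult liver. The newborn liver peak had an IDR of 0.251 and the kidney peak 0.0117. CYP27B1, which activates vitamin D in kidney, had no promoter peak in kidney or elsewhere, and its body peaks in kidney scored 6.25 and 7.12, and 6.28 and 4.66. CYP26A1 scored 149 and 13.2 in newborn, 19.8 and 22.2 in suckling and 188 and 123 in adult liver, just downstream of its first start. A further peak of CYP26A1, over a later start, was called in suckling (4.15 and 9.81) and adult liver (5.17 and 23.3).

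Across liver development few promoters changed state in the full lists, but more did in shorter ones. A promoter peak at all 3 ages was found at 25 genes (69.4%), against 67.5% of all PCGs. From newborn to suckling liver 1 gene gained a promoter peak (CYP11A1, all PCGs 3.43%) and 1 lost it (CYP24A1, all PCGs 2.14%). From suckling to adult 1 gained (CYP2C36, all PCGs 1.34%) and 0 lost (all PCGs 6.50%). From newborn to adult 2 gained (all PCGs 1.61%) and 1 lost (all PCGs 5.47%). These counts are too small to set CYP genes apart from other genes. At an IDR of 0.05 or lower, 10 gained from newborn to suckling (27.8%, all PCGs 16.4%), 6 from suckling to adult (16.7%, all PCGs 9.51%) and 11 from newborn to adult (30.6%, all PCGs 16.6%). With equal numbers of top peaks the gains were 4, 5 and 5 (11.1%, 13.9% and 13.9%), against 8.83%, 7.38% and 8.81% of all PCGs. With each list cut to that same length by the values of 1 replicate alone they were 4 to 5, against 4.65% to 8.6%.

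Counting the start itself gave a different picture, in a count added after the data were seen. A peak over an annotated start was called at 18 CYP genes in newborn (50.0%, all PCGs 63.8%), 20 in suckling (55.6%, all PCGs 62.7%) and 24 in adult liver (66.7%, all PCGs 61.3%). From newborn to suckling 4 genes gained such a peak (CYP1A2, CYP2A19, CYP11A1 and CYP26A1, 11.1%, all PCGs 2.01%) and 2 lost it (CYP2C34 and CYP8B1, 5.56%, all PCGs 3.18%). From suckling to adult 4 gained it (CYP1A1, CYP2C34, CYP2C36 and CYP8B1, 11.1%, all PCGs 2.57%) and 0 lost it (all PCGs 3.93%). From newborn to adult 6 gained it (16.7%, all PCGs 1.88%) and 0 lost it (all PCGs 4.41%). A gain can be a peak edge that moved over the start. The CYP1A1 region was called in every list, and those of CYP2A19 and CYP2C34 at all 3 liver ages. Some gained peaks were weak: the IDR was 0.631 at CYP26A1 and 0.363 and 0.631 at CYP1A2 in suckling liver, and 0.479 at CYP2C36 in adult liver. It was 0.02 at 1 CYP11A1 start in suckling liver and 0.00195 at CYP1A2 in adult liver. With the 57126 strongest peaks of each list the counts were 12, 15 and 18, against 50.2%, 50.8% and 51.6% of all PCGs, and with an IDR of 0.05 or lower they were 8, 15 and 15, against 39.7%, 47.7% and 50.2%. The CYP count was higher in adult than newborn liver under both, but under the IDR limit it was level from suckling to adult and the share of all PCGs rose too.

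**Figure D3:**
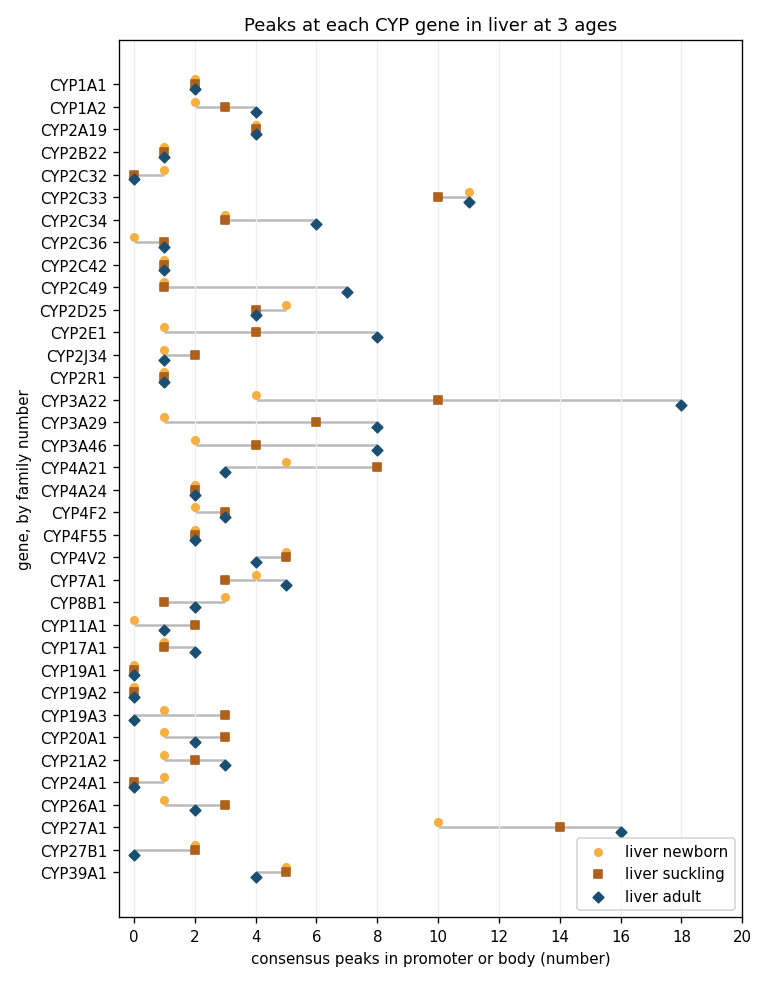
Number of consensus peaks in promoter or body (x axis) of each CYP gene (y axis, by family), with a marker for each of newborn, suckling and adult liver and a line over their range. CYP3A22 goes from 4 to 10 to 18 peaks and CYP2E1 from 1 to 4 to 8, while CYP4A21 goes from 5 to 8 to 3.

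Most of the change with age lay outside promoters. Peaks in promoter or body of the 36 genes added up to 87 in the newborn liver list, 116 in the suckling list and 136 in the adult list, whereas over all PCGs the sum went from 80598 to 94013 and then down to 74842. The newborn sums for the other tissues were 50 in kidney, 32 in lung, 32 in spleen, 23 in heart and 15 in muscle. At an IDR of 0.05 or lower the sum was 22 in kidney and 18 in newborn liver (all PCGs 31121 and 17683), so the lead of newborn liver over kidney was lost. From suckling to adult liver 13 CYP genes had more peaks (36.1%, all PCGs 15.2%) and 9 had fewer (25%, all PCGs 44.7%). From newborn to suckling 15 had more (41.7%, all PCGs 39.2%) and 6 fewer (16.7%, all PCGs 17.4%), which is near the background. From newborn to adult 16 had more (44.4%, all PCGs 21.2%) and 9 fewer (25%, all PCGs 33.9%).

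Drug-metabolizing genes of families 2 and 3 made up much of that rise. CYP3A22 had 4, 10 and 18 peaks at the 3 ages, CYP3A29 had 1, 6 and 8, and CYP3A46 had 2, 4 and 8. CYP2E1 had 1, 4 and 8, CYP2C49 had 1, 1 and 7, and CYP2C34 had 3, 3 and 6. CYP27A1, with 10, 14 and 16, was the other gene with many. CYP2C33 stayed at 11, 10 and 11. Many of these were weak peaks: the 6 regions of CYP2E1 called in adult liver alone had replicate −log10 p from 3.58 to 26.8. At an IDR of 0.05 or lower the sums were 18, 41 and 53, against 17683, 33622 and 38734 over all PCGs, CYP2E1 had 1 peak at each age and CYP3A22 had 1, 3 and 4. With equal numbers of top peaks the sums were 48, 48 and 61, so that the difference between newborn and suckling liver was gone and that from suckling to adult remained. Ranked by 1 replicate alone, they were 50, 45 and 56 without replicate 1 and 43, 55 and 67 without replicate 2.

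**Figure D4:**
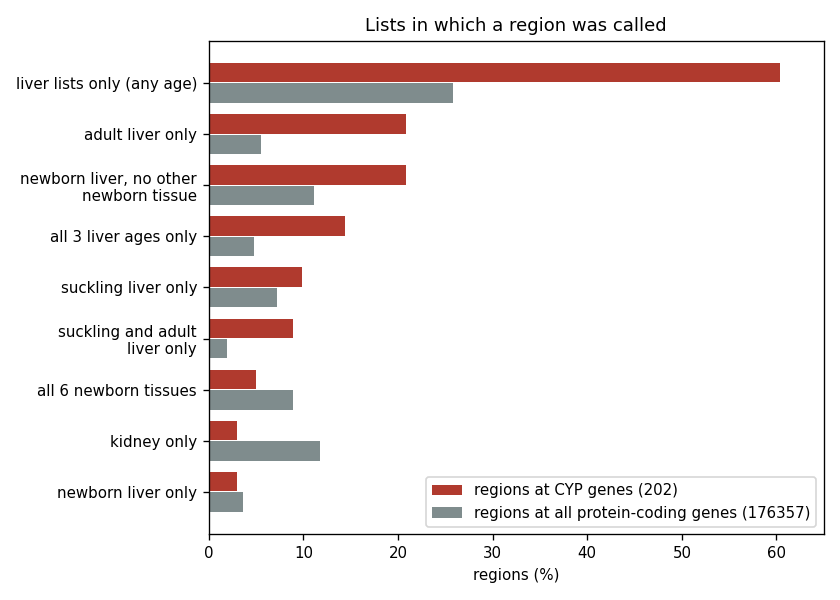
Percent of merged regions (x axis) called in the pattern of lists named on the y axis, for the 202 regions at CYP genes and the 176357 regions at all PCGs. Regions found in liver lists alone make up 60.4% at CYP genes and 25.8% at all PCGs, and regions found in kidney alone 2.97% and 11.8%.

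Merging the peaks of all lists gave 202 regions at CYP genes, of which 142 (70.3%) were intronic. Liver lists alone held 122 of them (60.4%, all PCGs 25.8%). Adult liver alone held 42 (20.8%, all PCGs 5.57%), suckling liver alone 20 (9.9%, all PCGs 7.26%) and newborn liver alone among all lists 6 (2.97%, all PCGs 3.66%). Regions called at all 3 liver ages and nowhere else numbered 29 (14.4%, all PCGs 4.73%), and those called in suckling and adult liver alone 18 (8.91%, all PCGs 1.94%). Counted over newborn tissues only, 42 regions (20.8%, all PCGs 11.1%) were in liver and no other, and 10 (4.95%, all PCGs 8.86%) were in all 6. Kidney alone held 6 regions (2.97%, all PCGs 11.8%). At an IDR of 0.05 or lower 44 of 71 regions (62.0%) were in liver lists alone, against 34.1% at all PCGs, and 16 (22.5%) were in adult liver alone, against 14.6%.

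By gene, 18 of the 19 regions of CYP3A22, 10 of 11 of CYP3A29 and all 10 of CYP2E1 were in liver lists alone, with 8, 5 and 6 of them in adult liver alone. CYP2C49 had 5 of 7 regions in adult liver alone, spread over its introns. CYP2C33 had 9 of 12 in liver lists alone, but 6 of these were present at all 3 ages and 1 in the adult alone. CYP27A1 had 17 of 25 in liver lists alone, with 4 at all ages and 4 in the adult. Erythroid markers moved with age as well: of GATA1, KLF1, ALAS2 and HBB, newborn liver had promoter peaks at 3, suckling liver at 2, adult liver at 0 and spleen at 4, and KLF1 had none in a liver list. In newborn liver GATA1 and ALAS2 were weak (percentiles 3.48 and 5.87) and HBB stood at 67.8. In suckling liver GATA1 stood at 15.2 and HBB at 57.7. The part of erythroid cells in the CYP counts was not tested.

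Promoter strength was compared between liver ages with limma over the 13199 PCGs open at all 3 ages, among them 25 CYP genes. Each library's −log10 p of the strongest promoter peak was turned into a rank-based normal score, in which 1 unit is 1 SD over genes. No CYP gene passed an adjusted p of 0.05 in any of the 3 contrasts. With the strongest peak in promoter or body instead, limma called CYP21A2 for adult minus suckling (1.82, adjusted p = 0.0493). The suckling peak of the region upstream of CYP21A2, described above, lay outside promoter and body and was not counted in that fit. Without newborn liver replicate 2 the newborn group held 1 library, and the CYP4F2 differences of that fit are given in the last section. Suckling minus newborn called 26 PCGs (0.197%), adult minus suckling called 0 (0%, with 1779 PCGs and 3 CYP genes at an unadjusted p under 0.05), and adult minus newborn called 0 (0%, with 919 PCGs and 1 CYP gene). In suckling minus newborn 2 CYP genes were under 0.05 unadjusted. The median difference over the 25 CYP genes was 0.06 for suckling minus newborn, 0.28 for adult minus suckling and 0.17 for adult minus newborn, beside −0.01, −0.01 and −0.03 over all genes tested, and it was above 0 for 14, 15 and 18 of the 25.

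The CYP3A22 score was higher in adult than in newborn liver by 0.83 (SE 0.29, limma adjusted p = 0.669) and than in suckling liver by 0.77 (adjusted p = 0.37), where the suckling value is of the peak over the later start and the others are of the peak upstream. CYP2C34 was lower in suckling than newborn liver by a difference of −1.19 and higher in adult than suckling liver by 0.92 (limma adjusted p = 0.524 and 0.37), where the strongest suckling peak lay at another position. CYP21A2 was higher in adult than suckling liver by 1.60 (SE 0.30, limma adjusted p = 0.245), where the suckling value is that of the weaker peak described above. For CYP4A24 the difference of adult minus suckling was 2.16 with an SE of 1.58, since its suckling libraries disagreed. With 2 libraries a group, differences of this size could not be told from the spread between replicates.

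**Figure D5:**
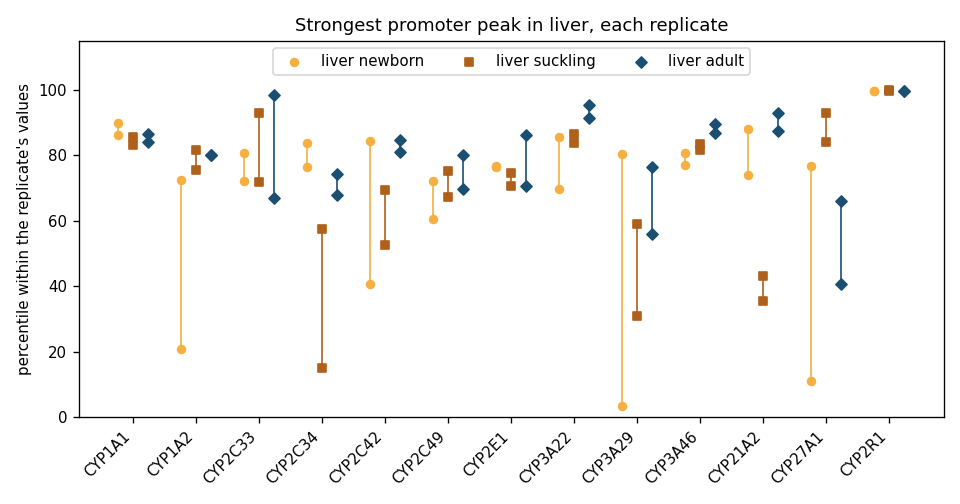
Percentile of the strongest promoter peak among the peaks of its list (y axis), with a point for each of the 2 replicates, joined by a line, of newborn, suckling and adult liver, for 13 CYP genes open at all 3 ages (x axis). The strongest peak can lie at another position at another age, as for CYP3A22. CYP2R1 lies at 99.5 or above in all 6 libraries, while CYP1A2 in newborn liver lies at 72.3 in one replicate and 20.7 in the other.

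Newborn liver was also set against the mean of the other 5 newborn tissues, over the 11258 PCGs open in all 6 of them. limma called 45 of these (0.400%) and none of the 8 CYP genes, of which 3 were under 0.05 unadjusted. The median difference was 0.38 over the 8 and 0.03 over all, and 5 of the 8 were above 0. CYP1A1 differed by 1.14 (SE 0.39, limma adjusted p = 0.454), CYP4V2 by 0.80 (adjusted p = 0.571) and CYP27A1 by −0.80 (adjusted p = 0.534).

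CYP promoters were poor in CpG, the dinucleotide that is dense at most broadly active promoters. The ratio of observed to expected CpG within 500 bp of the most upstream start had a median of 0.233 over the 36 genes and 0.655 over all PCGs. The 8 CYP genes open in all newborn tissues had a median of 0.511, from 0.119 at CYP1A1 to 0.912 at CYP20A1, against 0.757 for all PCGs of that pattern. The 7 open in newborn liver alone had a median of 0.161, from 0.0591 at CYP2C34 to 0.424 at CYP21A2, against 0.287 for the 280 PCGs of that pattern. The 8 with a peak in no newborn tissue had a median of 0.285, against 0.271 for the 3590 PCGs of that pattern. The CYP median was thus the lower one in the first pair of patterns and the higher one in the last. CYP4F55 (0.137) was open in all tissues at a low ratio. The ratio describes the stretch at the most upstream start, which need not be the open one. The CYP1A1 summit lay 988 bp upstream in newborn liver, outside that stretch, and the CYP4V2 peak lay at a later start. Their ratios are thus not those of their peaks. No test was made of these ratios.

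Other words were rare near CYP summits. FOXA words lay within 150 bp of the strongest promoter summit at 4 of 26 CYP genes in newborn liver (15.4%, all promoter peaks 5.47%), namely CYP2C34, CYP2C49, CYP4F55 and CYP4V2. In adult liver they lay at 4 of 27 (14.8%, all 5.81%), with CYP2C36 in place of CYP4F55, and in suckling liver at 3 of 26 (11.5%, all 5.18%). The share was not higher in liver than elsewhere. It was 22.2% in muscle (2 of 9, all 4.54%), 21.1% in kidney (4 of 19, all 4.59%) and 18.2% in heart (2 of 11, all 4.16%). In lung and spleen it was 15.4% (all 4.98% and 4.71%). CYP4F55 and CYP4V2 held the word in each of these 5 tissues. CEBP words lay at 4 genes in adult liver (14.8%, all 7.97%), namely CYP2C36, CYP2C49, CYP11A1 and CYP27A1, but at 2 of 26 in newborn liver (7.69%, all 7.24%) and 2 of 26 in suckling liver (7.69%, all 6.87%), near the background. AHR words lay at CYP24A1 as well as CYP1A1, in heart, kidney, lung and newborn liver, though outside the window printed for it. The NR5A word TCAAGGTCA was found at CYP2D25 in newborn liver alone (all promoter peaks 0.348%). The HNF4 words CAAAGTCCA and CAAAGGTCA, the last of which shares AGGTCA with the NR5A word, were found at no CYP summit (all promoter peaks of newborn liver 0.814%). The exact nuclear receptor pairs searched for were found at none either. They were AGGTCA repeated with 1, 3 or 4 bases between, AGTTCA repeated with 5 bases between, or these words facing apart with 6 bases between. In newborn liver the most frequent pair was at 0.0487% of all promoter peaks, so finding none at 26 CYP genes says little. Direct repeats of unlike words were not searched for. The printed CYP3A29 window holds one, agttca and then aggtca with 4 bases between.

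Partners and regulators of the enzymes were open more widely than the CYP genes, whose share in the newborn tissues other than liver lay below that of all PCGs. Of 6 electron donors listed 5 matched a gene symbol, and these (POR, CYB5A, CYB5B, FDX1 and FDXR) had promoter peaks in all 8 lists. Of 13 regulators known to act at CYP genes, newborn liver had promoter peaks at 13, suckling and adult liver at 12, kidney at 11, lung at 10, heart at 9, spleen at 8 and muscle at 6. In that order, the shares of all PCGs were 73.5%, 74.8% and 69.7%, 75.1%, 70.4%, 67.9%, 68.8% and 61.4%. In heart, spleen and muscle the regulators were thus near or below the share of all PCGs. NR1I3, the receptor CAR that induces family 2 genes after exposure to drugs, was open in the 3 liver lists alone.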

How the data were processed

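Peak lists were analysed for 16 ATAC-seq libraries in 8 groups of 2 replicates. According to the methods, the authors aligned reads to Sscrofa11.1 with Bowtie2, removed mitochondrial, duplicate and low-quality (mapping quality under 10) reads with SAMtools 1.3.1, called peaks per replicate with MACS2 and merged replicates with IDR at its defaults. For every peak, the deposited lists hold 2 replicate values of −log10 p and the authors' score, a scaled IDR in which 541 or more means an IDR of 0.05 or lower, and they are not filtered on IDR. Mapping filters can hide peaks at close paralogs, so 150-base tiles were mapped back with minimap2 2.31-r1302.

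Peaks were overlapped (1 bp) with promoters and bodies of RefSeq Sscrofa11.1 genes on placed chromosomes, the build of the lists, in which no peak lay past a chromosome end. limma 3.58.1 (R 4.3.3) with Benjamini-Hochberg adjustment was fitted to rank-based normal scores over all genes open in every group of a contrast, and it was tested on simulated data. Its p-values measure the spread between 2 libraries a group. Alternatives were an IDR of 0.05, equal numbers of top peaks (57126), a promoter of 1 kb and summits in the promoter. Others were log2 values, the strongest peak in promoter or body, a replicate block and leaving out replicates. For counts, leaving out a replicate meant ranking the merged list by the other replicate and keeping 57126 peaks. For limma it meant dropping 1 library. Members, gene lists and tests were chosen with earlier results of these data known. Genes were named by a fixed rule: members open in newborn liver alone among newborn tissues, members whose promoter call changed between liver ages, members past the limma threshold, and a list of well-known members with all CYP2C and CYP3A genes, of which CYP7B1 and CYP46A1 were not among the members. Members outside it (CYP2A19, CYP2J34, CYP2D25, CYP4A21, CYP4A24, CYP4F2, CYP4F55, CYP4V2, CYP20A1 and CYP39A1, and those in lists of counts) were named after their values were seen. Sequences and CpG ratios were read from the RefSeq genome. Transcriptome data were not used here.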

Additional observations from a re-analysis of the deposited data

How the results depend on the processing

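Counts of CYP genes rest on pooled lists that differ in length and in reproducibility. At an IDR of 0.05 or lower, CYP promoter peaks fell to 4 in heart, 14 in kidney, 13 in newborn liver, 4 in lung, 3 in muscle and 5 in spleen, and the share of all PCGs in these lists fell to between 36.9% and 56.1%. Promoter gains and losses were then 10 and 3 from newborn to suckling liver, 6 and 4 from suckling to adult, and 11 and 2 from newborn to adult (all PCGs 16.4% and 5.10%, 9.51% and 8.03%, 16.6% and 3.77%). Of then 71 regions, 8 were in newborn liver alone among newborn tissues (11.3%, all PCGs 6.74%). Liver lists alone held 44 (62.0%, all PCGs 34.1%) and adult liver alone 16 (22.5%, all PCGs 14.6%). With equal numbers of top peaks, gains and losses were 4 and 4, then 5 and 1, with 5 gained from newborn to adult (all PCGs 8.83% and 7.38%, 7.38% and 8.40%, and 8.81%), and the regions were 25, 49 and 15. With a promoter of 1 kb, gains and losses were 3 and 2 (newborn to suckling, all PCGs 3.06% and 2.07%) and 2 and 1 (suckling to adult, all PCGs 1.4% and 5.98%). With summits in the promoter they were 2 and 2 (all PCGs 3.92% and 2.76%), with 2 gained from suckling to adult (all PCGs 1.98%).

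For the counts, a replicate was left out by ranking each merged list by the other one and keeping 57126 peaks. The lists thus also became shorter, except muscle, which holds 57126 peaks and could not change. Promoter counts were then 8 to 10 in heart, 14 to 15 in kidney, 21 to 22 in newborn liver, 8 to 12 in lung and 10 to 11 in spleen. They were 22 in suckling and 24 to 26 in adult liver, 9 in muscle, and 7 to 9 for newborn liver alone. Gains were 4 to 5 in each comparison of ages, and losses 4, 1 to 2, and 0 to 2 (all PCGs 4.65% to 8.6% gained and 5.53% to 8.50% lost). Without replicate 1, 23 of 95 regions were in newborn liver alone among newborn tissues (24.2%, all PCGs 7.75%). Liver lists alone held 43 (45.3%, all PCGs 16.4%) and adult liver alone 13 (13.7%, all PCGs 5.38%). Without replicate 2 these counts were 25, 56 and 14 of 109 (22.9%, 51.4% and 12.8%, all PCGs 10.3%, 18.6% and 4.79%). Lung without replicate 2 had 8 genes.

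In limma, the strongest peak in promoter or body called 1 CYP gene for adult minus suckling, CYP21A2 (1.82, adjusted p = 0.0493). The suckling peak of its upstream region lay outside promoter and body and was not counted there. Without newborn liver replicate 2, which scored 37.9 at CYP4F2 (percentile 90.9), the newborn arm held 1 library (3.94, percentile 5.11), assumed to vary like the other groups. CYP4F2 was then called, and the counts ranged from 0 to 1 for suckling minus newborn (2.19, adjusted p = 0.0411) and for adult minus newborn (2.17, adjusted p = 0.0489), and were 0 in the other contrasts. With the replicate number as a block 0 CYP genes were called in each contrast. Correlations of same-numbered libraries ran from −0.11 to 0.24, and the labels do not say that a number marks an animal. Of the recomputed counts of promoters, regions and limma calls, 119 stayed within 1.5 times the reported one, or equal to it for limma, and 51 did not. Most promoter gains and losses and most region counts were among the 51, and many of the 119 were limma counts that stayed at 0. This tally compares counts and not shares, and the shorter lists held fewer regions in all. Of the counts of peak numbers and of peaks over starts, whose alternatives were chosen after seeing the data, 37 stayed within 1.5 times and 23 did not.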
